A study of Mus musculus with 6 samples.

Results

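The proteasome is the barrel-shaped protease that degrades proteins marked with ubiquitin. Its core particle is built from rings of alpha and beta subunits, 3 of the beta subunits cut peptides, and a cap of ATPases (base) and other subunits (lid) recognises, unfolds and feeds in the substrate. Dedicated chaperones assemble the particle and leave it when it is finished. Interferon replaces the cutting subunits by immunoproteasome versions, which shape the peptides that MHC class I molecules present, and immune cells are known to express these versions.

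Proteasome genes were taken as all probe sets whose platform annotation names a single gene with a symbol from Psma to Psmg followed by a digit. This gave 103 probe sets of 49 genes, out of 45101 probe sets in the whole series, and each gene was read from its brightest probe set, judged by the mean of all 6 arrays. Of the 49 genes, 46 were bright enough to be tested, meaning a log2 value above 4 on at least 3 arrays. They comprise 7 alpha and 7 beta core subunits, 9 cap base and 8 cap lid subunits, 4 immunoproteasome genes, 7 assembly chaperones, 3 other activators or inhibitors and Psme3ip1, which shares the name stem but encodes a partner protein of the activator. The probe set for Psme2, the partner of Psme1 in the immunoproteasome activator, is annotated to several genes and was not used.

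Whole jejunum (mid small intestine) was compared between 3 male mice lacking both Ifrd1 (TIS7) and Ifrd2 (SKMc15) and 3 male wild type mice. All mice had a C57BL/6 background, were 7 to 10 weeks old, lived in single cages and ate a high-fat diet (42% of kcal from milk fat, 0.2% from cholesterol). RNA came from tissue frozen after 3 weeks of this diet, with 1 Affymetrix mouse genome array per mouse. The labels give neither the removed exons nor any restriction of the deletion to a cell type, so the double knockout is treated here as the labels name it. In whole tissue, fewer cells of a type and less RNA per cell cannot be told apart.

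Ifrd2 had log2 levels of 2.64, 2.74 and 2.59 in double knockout mice 1, 2 and 3, against 8.20, 8.32 and 8.61 in wild type mice 1, 3 and 4. Ifrd1 had 6.27, 4.80 and 4.85 in the double knockout mice, against 10.00, 9.84 and 9.91 in the wild type mice. Both were lower on every double knockout array (limma adjusted p = 2.37e-05 for Ifrd2 and 0.00894 for Ifrd1). The median probe set of an array had a log2 value of 2.87 to 2.90. The enterocyte markers Fabp1 and Vil1, picked by name to check the tissue, were bright in both groups (14.16 and 13.07 in double knockout, 14.21 and 13.11 in wild type, as mean log2 levels). The number of arrays limits the precision of every value below.

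Assembly chaperones were the only proteasome genes to pass the test. Psmg1 and Psmg4, subunits of the chaperone pairs that build the alpha ring, rose in double knockout jejunum by 1.45-fold and 1.43-fold, and 0 proteasome genes fell. These are 2 of 46 tested genes, where 2.54% of all 18013 tested probe sets were called higher and 1.93% lower by the same limma fit (adjusted p of at most 0.05). The remaining genes did not pass, and most of their fold changes were positive. The median log2 fold change was 0.17 over the 46 genes, against 0.025 over all tested probe sets, and 42 of 46 genes had a positive value, against 53.6% of all tested probe sets. The 46 genes were brighter (median log2 level 10.23, against 7.33) and had smaller standard errors (median 0.088, against 0.12). Shares over all tested probe sets, here and below, are therefore not for genes of like level and precision.

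**Figure D1:**
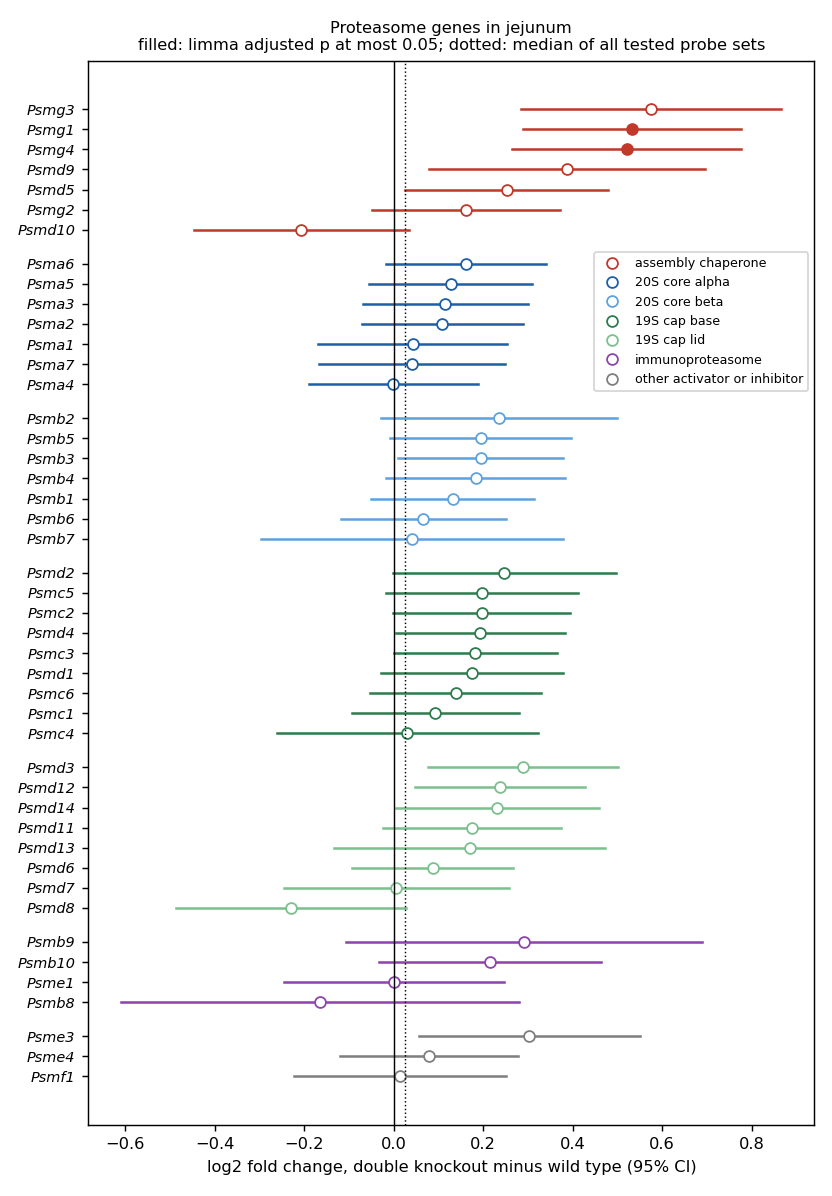
Log2 fold change (double knockout minus wild type) with 95% confidence interval on the horizontal axis for the 45 tested proteasome genes other than Psme3ip1, grouped by role down the page. Filled points, Psmg1 and Psmg4, passed the limma threshold, and 3 genes apart from Psma4 lie left of 0 (Psmd10, Psmd8 and Psmb8).

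Psmg1 (PAC1), which pairs with Psmg2 (PAC2) to guide alpha ring formation, had log2 levels of 7.72, 7.98 and 7.96 in double knockout mice 1, 2 and 3, against 7.27, 7.41 and 7.37 in wild type mice 1, 3 and 4. All double knockout values lay above all wild type values, and the log2 fold change was 0.53 ± 0.10 (SE, limma adjusted p = 0.0422). Psmg4 (PAC4), which pairs with Psmg3 (PAC3), had 4.53, 4.77 and 4.70 in the double knockout mice, against 4.26, 4.01 and 4.17 in the wild type mice. The groups did not overlap (log2 fold change 0.52 ± 0.11, limma adjusted p = 0.0491). These levels lie just above the minimum of 4, where the background model of the array software weighs most.

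Psmg3 had the largest fold change of the 46 genes but fell just outside the threshold. Its log2 levels were 7.06, 6.89 and 7.12 in double knockout mice 1, 2 and 3, against 6.24, 6.55 and 6.55 in wild type mice 1, 3 and 4, a log2 fold change of 0.58 ± 0.12 (limma adjusted p = 0.0520). Every double knockout value exceeded every wild type value, and wild type mouse 1 was the lowest. Psmg2 stood at 0.16 ± 0.09 (limma adjusted p = 0.282). Its groups were barely apart, with 7.95, 8.05 and 8.04 in the double knockout mice, against 7.94, 7.85 and 7.76 in the wild type mice.

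The chaperones that assemble the ATPase ring of the cap gave mixed values. Psmd9 (p27) had log2 levels of 6.55, 6.62 and 6.79 in double knockout mice 1, 2 and 3, against 6.04, 6.32 and 6.43 in wild type mice 1, 3 and 4 (log2 fold change 0.39 ± 0.13, limma adjusted p = 0.121). Psmd5 (S5b) had 7.52, 7.35 and 7.58 in the double knockout mice, against 7.17, 7.22 and 7.30 in the wild type mice (0.25 ± 0.09, adjusted p = 0.152 in the same limma fit). Neither gene's groups overlapped. Psmd10 (gankyrin) ran the other way, with 7.88, 7.92 and 7.70 in the double knockout mice, against 8.01, 7.96 and 8.15 in the wild type mice. Its groups did not overlap either, with all double knockout values lower (-0.21 ± 0.10, limma adjusted p = 0.239).

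Over the 7 assembly chaperones, 2 rose, 0 fell and 5 did not pass, with a median log2 fold change of 0.39. An unadjusted limma p under 0.05 was found for 5, the 2 that passed among them, against 27.1% of all tested probe sets. Groups did not overlap for any of the 7, with the double knockout higher for 6 and lower for Psmd10; over all tested probe sets 19.5% had the double knockout entirely higher and 14.8% entirely lower. The difference between chaperones and subunits was not tested, since the genes were chosen with earlier results known. No proteasome gene lies within 10 Mb of Ifrd1 or Ifrd2, and Psmg1, Psmg3 and Psmg4 lie on other chromosomes than either.

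**Figure D2:**
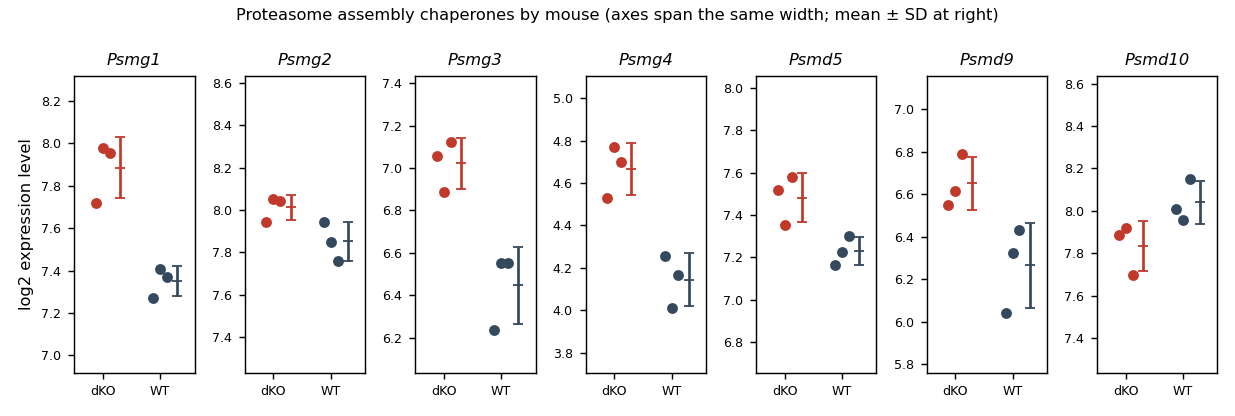
Log2 expression level of the 7 assembly chaperones by mouse, double knockout left of wild type, with the group mean ± SD (n = 3) beside the points. Psmg1 lies between 7.72 and 7.98 in double knockout and between 7.27 and 7.41 in wild type mice, and Psmd10 is the one gene with the double knockout mice lower.

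The calls of Psmg1 and Psmg4 were lost under several alternatives. Without the filter on dim probe sets the limma adjusted p was 0.0640 for Psmg1 and 0.0744 for Psmg4. The Psmg4 call was also lost with quantile normalization, median centring and a trended, robust variance prior (limma adjusted p 0.0548, 0.0510 and 0.0660). Leaving out any 1 mouse left 0 proteasome genes called, with log2 fold changes between 0.49 and 0.62 for Psmg1 (limma adjusted p 0.0518 to 0.134) and between 0.45 and 0.59 for Psmg4 (limma adjusted p 0.0695 to 0.144). Of 6 tested markers of dividing cells, 4 rose and 0 fell, against 2.54% and 1.93% of all tested probe sets. Log2 fold changes were 1.18 ± 0.17 for the mitotic kinase Plk1, 0.60 ± 0.10 for the cell cycle kinase Cdk1, 0.55 ± 0.10 for the topoisomerase Top2a and 0.52 ± 0.08 for the replication helicase subunit Mcm5 (limma adjusted p 0.0256, 0.0295, 0.0344 and 0.0277). Mki67 (0.45 ± 0.11) and Pcna (-0.049 ± 0.11), named to complete the list, did not pass (limma adjusted p = 0.0674 and 0.800). The summed linear signal of the 6 markers ran from 4862 to 5379 in double knockout and from 4027 to 4254 in wild type mice, and 0 of them lay below 4 on all arrays. Without 1 mouse, the adjusted p of the 4 passing markers lay between 0.0481 and 0.126 in limma fits. Fibroblast markers also had higher values, with 4 of 4 positive (median 0.53), against 53.6% of all tested probe sets. By limma 0 of them passed the threshold and 1 had an unadjusted p under 0.05, against 27.1% of all tested probe sets. Summed fibroblast signals were 4288 to 5587 in double knockout and 2722 to 4531 in wild type mice. Enterocyte markers summed to 81377 to 84001 in double knockout and to 86319 to 87479 in wild type mice, and 0 of 7 passed by limma (1 at an unadjusted p under 0.05, against 27.1% of all tested probe sets). Paneth, goblet and smooth muscle markers had 0 genes past the limma threshold and 0 at an unadjusted limma p under 0.05. Their medians were -0.075, -0.046 and 0.057. The part of these cell types in the chaperone values was not tested.

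RNA integrity was read from actin and GAPDH control probe sets as their mean 3' minus 5' value. It was 0.60, 0.41 and 0.61 on the log2 scale in double knockout mice 1, 2 and 3, against 0.35, 0.49 and 0.36 in wild type mice 1, 3 and 4. The groups overlapped, with a difference of 0.14 (two-sided exact permutation test, p = 0.20; 0.10 is the smallest p that 3 against 3 mice allow). With this integrity value as a covariate, 0 proteasome genes passed, with Psmg1 at 0.57 (limma adjusted p = 0.199) and Psmg4 at 0.66 (limma adjusted p = 0.153).

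Because the alpha-ring chaperones Psmg1, Psmg3 and Psmg4 had the largest fold changes, the 250 bases upstream of their annotated starts are shown. Those of the core subunit Psmb5 and the lid subunit Psmd12 are printed too, as windows that each hold a match. Sequences are from RefSeq, build GRCm38.p6, 5′ to 3′ on the strand of the gene. Capitals mark matches to any of 4 motifs searched on both strands, none of which contains another: TGACNNNGC, the antioxidant response element bound by the factors Nfe2l1 and Nfe2l2; CCAAT, bound by the NF-Y complex; CACGTG, the E-box; and GAAA, any 2 bases and GAAA, an interferon response element. The windows are chr16:95990961-95991210 (minus strand) for Psmg1, chr5:139826895-139827144 (minus strand) for Psmg3, chr13:34162714-34162963 (plus strand) for Psmg4, chr14:54617996-54618245 (minus strand) for Psmb5 and chr11:107479278-107479527 (plus strand) for Psmd12.
Psmg1: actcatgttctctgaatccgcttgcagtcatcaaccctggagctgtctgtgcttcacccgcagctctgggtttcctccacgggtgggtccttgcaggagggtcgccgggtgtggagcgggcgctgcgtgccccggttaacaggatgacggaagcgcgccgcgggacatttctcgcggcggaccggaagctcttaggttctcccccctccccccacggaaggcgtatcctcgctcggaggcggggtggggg
Psmg3: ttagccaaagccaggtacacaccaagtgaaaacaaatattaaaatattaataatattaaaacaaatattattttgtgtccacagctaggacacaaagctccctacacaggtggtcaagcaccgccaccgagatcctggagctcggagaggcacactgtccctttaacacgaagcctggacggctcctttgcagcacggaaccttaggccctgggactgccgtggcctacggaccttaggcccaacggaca
Psmg4: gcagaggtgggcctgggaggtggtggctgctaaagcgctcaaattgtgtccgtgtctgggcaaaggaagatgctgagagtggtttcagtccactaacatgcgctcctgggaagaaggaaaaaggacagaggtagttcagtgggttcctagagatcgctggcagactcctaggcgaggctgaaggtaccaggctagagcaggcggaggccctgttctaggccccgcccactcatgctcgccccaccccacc
Psmb5: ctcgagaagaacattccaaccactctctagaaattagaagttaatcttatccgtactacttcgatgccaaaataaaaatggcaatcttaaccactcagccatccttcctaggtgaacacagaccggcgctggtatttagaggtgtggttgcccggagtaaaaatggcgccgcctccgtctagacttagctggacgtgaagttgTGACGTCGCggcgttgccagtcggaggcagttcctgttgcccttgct
Psmd12: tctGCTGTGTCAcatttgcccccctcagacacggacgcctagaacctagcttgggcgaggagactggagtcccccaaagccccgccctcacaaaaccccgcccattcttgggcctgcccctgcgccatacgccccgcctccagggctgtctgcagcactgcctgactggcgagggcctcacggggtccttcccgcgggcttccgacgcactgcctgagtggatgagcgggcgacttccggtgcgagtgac

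The windows of Psmg1, Psmg3 and Psmg4 held none of the 4 motifs. Psmb5 held 1 antioxidant response element, from 47 to 39 bases before the start, and Psmd12 held 1 on the opposite strand, from 247 to 239 bases before the start. Of 49 proteasome genes, 41 had an entry in the promoter table, with 44 promoters. Among these, the antioxidant response element was in 5 promoters (11.4%), against 10.2% of all 32851 promoters, and lay upstream of Psmb5, Psmb6, Psmc6, Psmd12 and Psmd9. It was in 2 of 13 core, 2 of 15 cap and 1 of 6 assembly chaperone promoters, so Psmb5 and Psmd12 do not stand for their groups. The CCAAT box was in 16 (36.4%, against 33.8% of all promoters), the E-box in 5 (11.4%, against 6.02%) and the interferon response element in 3 (6.82%, against 2.98%). The E-box lay upstream of Psma4, Psmb10, Psmd9, Psme3 and Psme3ip1. Carriers of the interferon response element were Psmb3, Psmd4 and Psmd9, and 0 of 4 immunoproteasome promoters held it. A match describes letters only, and the shares were not tested.

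The core particle gave small values in one direction, and 0 of its 14 tested subunits passed the limma threshold (1 at an unadjusted p under 0.05, against 27.1% of all tested probe sets). Fold changes were positive for 13 of 14, with a median of 0.12 on the log2 scale, which is 1.09-fold. Double knockout values lay entirely above the wild type values for 9 of 14, against 19.5% of all tested probe sets. Together the 95% confidence intervals of the 14 genes reached from -0.30 to 0.50, so that a change of more than 0.50 on the log2 scale lay outside each of them.

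Among alpha subunits, which form the outer rings and the gate, log2 fold changes ran from -0.0005 to 0.16. The largest was that of Psma6, with 11.65, 11.60 and 11.64 in double knockout mice 1, 2 and 3, against 11.45, 11.50 and 11.45 in wild type mice 1, 3 and 4 (0.16 ± 0.08, limma adjusted p = 0.218). The groups were close together and did not overlap. The smallest was that of Psma4, with 11.26, 11.27 and 11.23 in the double knockout mice, against 11.30, 11.18 and 11.28 in the wild type mice, which overlapped throughout.

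Among beta subunits, log2 fold changes ran from 0.041 to 0.24. Psmb2, a structural beta subunit, had the largest, with 9.76, 10.08 and 9.97 in double knockout mice 1, 2 and 3, against 9.60, 9.78 and 9.71 in wild type mice 1, 3 and 4 (0.24 ± 0.11, limma adjusted p = 0.225). Double knockout mouse 1 fell within the wild type range. Psmb5, the subunit with chymotrypsin-like activity, had 10.42, 10.45 and 10.35 in the double knockout mice, against 10.12, 10.26 and 10.25 in the wild type mice (0.20 ± 0.08, limma adjusted p = 0.196). Its groups did not overlap. The caspase-like subunit Psmb6 and the trypsin-like subunit Psmb7 stood at 0.067 ± 0.077 and 0.041 ± 0.14 (limma adjusted p = 0.605 and 0.875).

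The cap gave values much like the core. Of 17 tested subunits, 0 passed by limma, 5 had an unadjusted p under 0.05 (against 27.1% of all tested probe sets) and 16 had a positive fold change. For 13 of 17 the double knockout values lay entirely above the wild type values, against 19.5% of all tested probe sets. The median log2 fold change was 0.18 over all 17, 0.18 over the base and 0.17 over the lid. The 95% intervals of all 17 lay between -0.49 and 0.50.

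In the base, which holds the ATPases and ubiquitin receptors, Psmd2, a scaffold that docks ubiquitin carriers, had the largest fold change. Its log2 levels were 9.64, 9.44 and 9.48 in double knockout mice 1, 2 and 3, against 9.17, 9.42 and 9.24 in wild type mice 1, 3 and 4 (0.25 ± 0.10, limma adjusted p = 0.187). The groups came close, with double knockout mouse 2 only just above wild type mouse 3. The ATPase Psmc4 had the smallest, at 0.031 ± 0.12 (limma adjusted p = 0.894).

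In the lid, Psmd3 had the largest fold change, with log2 levels of 9.39, 9.29 and 9.31 in double knockout mice 1, 2 and 3, against 8.93, 9.13 and 9.06 in wild type mice 1, 3 and 4 (0.29 ± 0.09, limma adjusted p = 0.104). Its groups did not overlap. Psmd12, another lid subunit, stood at 0.24 ± 0.08 (limma adjusted p = 0.123), and Psmd14, which removes ubiquitin chains from substrates, at 0.23 ± 0.09 (limma adjusted p = 0.176). Psmd8 was the only cap subunit with a negative value, with 10.05, 10.32 and 10.02 in the double knockout mice, against 10.40, 10.30 and 10.38 in the wild type mice (-0.23 ± 0.11, limma adjusted p = 0.223). Double knockout mouse 2 lay within the wild type range, and the other two lay below it.

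**Figure D3:**
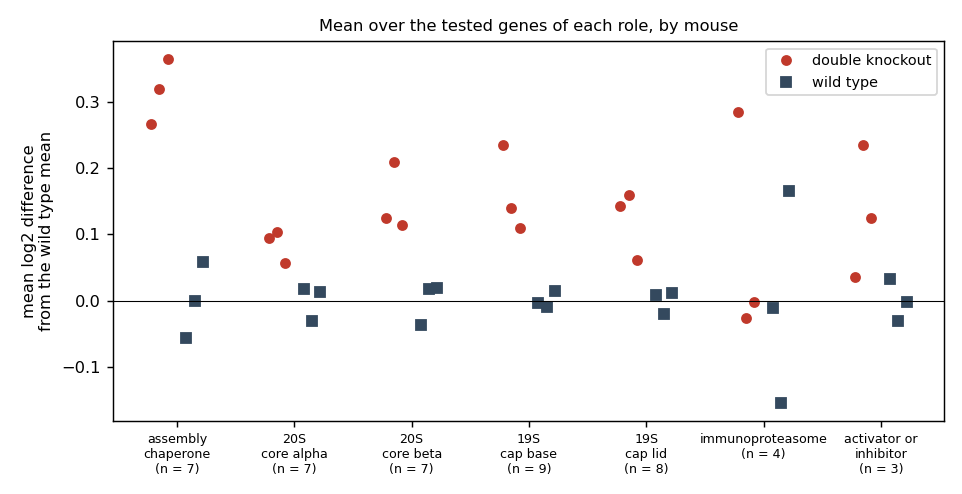
Mean log2 difference from the wild type mean over the tested genes of each role, with 1 point for each mouse, double knockout (circles) left of wild type (squares). Chaperones lie between 0.27 and 0.37 in double knockout mice, core and cap groups between 0.06 and 0.24, and immunoproteasome genes scatter in both genotypes.

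By mouse, core subunits averaged 0.11, 0.16 and 0.086 in double knockout mice 1, 2 and 3, as log2 differences from the mean of wild type mice, against -0.0094, -0.0067 and 0.016 in wild type mice 1, 3 and 4. Cap subunits averaged 0.19, 0.15 and 0.087 in the double knockout mice, against 0.0019, -0.015 and 0.013 in the wild type mice. The 3 double knockout mice therefore lay above the 3 wild type mice in both averages. These averages hold many genes measured on the same arrays and carry no test.

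Immunoproteasome genes went in different directions, and of all roles their average over genes varied most between mice. Of the 4 tested, 0 passed by limma and 0 had an unadjusted p under 0.05 (against 27.1% of all tested probe sets), and the groups of each overlapped. The median log2 fold change was 0.11, and 0.048 without double knockout mouse 1. By mouse, the same average was 0.28, -0.026 and -0.0015 for double knockout mice 1, 2 and 3, against -0.011, -0.16 and 0.17 in wild type mice 1, 3 and 4. The spread of this average between mice of a group was 0.17 (SD, pooled over both groups), against 0.028 for the core average and 0.039 for the cap average. Those averages hold 14 and 17 genes, and averaging more genes narrows the spread. By gene, Psmb7 had the largest SD of the tested core subunits in both groups (0.22 in double knockout, 0.16 in wild type). Psmb8 and Psmb9 had larger SDs than Psmb7 in both groups, and Psmb10 and Psme1 had smaller ones. In double knockout mice Psmb10 (0.14) still exceeded every tested core subunit but Psmb2 and Psmb7. In wild type mice Psme1 (0.13) exceeded every one but Psmb7.

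Psmb9 (LMP2), which replaces Psmb6, had log2 levels of 9.98, 9.43 and 9.56 in double knockout mice 1, 2 and 3, against 9.30, 9.23 and 9.57 in wild type mice 1, 3 and 4 (0.29 ± 0.17, limma adjusted p = 0.307). Double knockout mouse 1 stood above all other mice, and without it the log2 fold change was 0.13. Psmb10 (MECL-1), which replaces Psmb7, had 11.23, 10.95 and 11.09 in the double knockout mice, against 10.82, 10.83 and 10.97 in the wild type mice (0.22 ± 0.10, limma adjusted p = 0.233). The same mouse was again the highest, and double knockout mouse 2 fell just below wild type mouse 4.

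Psmb8 (LMP7), which replaces Psmb5, had 10.39, 10.00 and 10.00 in double knockout mice 1, 2 and 3, against 10.28, 9.99 and 10.61 in wild type mice 1, 3 and 4 (-0.16 ± 0.19, limma adjusted p = 0.601). Wild type mouse 4 was the highest, the genotypes were intermixed, and the log2 fold change lay between -0.32 and -0.0074 without 1 mouse, nearest 0 without wild type mouse 4. Psme1 (PA28 alpha), a subunit of the interferon-induced activator ring, had 11.67, 11.64 and 11.48 in the double knockout mice, against 11.69, 11.45 and 11.64 in the wild type mice. Its log2 fold change was 0.0005 ± 0.10 (limma adjusted p = 0.998), with a 95% interval from -0.25 to 0.25.

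Each immunoproteasome subunit was also set against the subunit that it replaces, as the difference of their log2 values within an array. Psmb8 minus Psmb5 changed by -0.36 in double knockout relative to wild type mice, Psmb9 minus Psmb6 by 0.22 and Psmb10 minus Psmb7 by 0.17. Without 1 mouse these changes ranged from -0.54 to -0.22, from 0.062 to 0.35 and from 0.058 to 0.34. Two-sided exact permutation tests over the 20 splits of the mice gave p = 0.20, 0.40 and 0.40, and 0.40 for each after Benjamini-Hochberg adjustment over the 3 pairs. With 3 mice a group the smallest p that can be reached is 0.10, so this test could not pass at 0.05. The pairs differed in sign, and double knockout mouse 2 lay below the wild type mean in all of them (-0.53, -0.027 and -0.16).

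**Figure D4:**
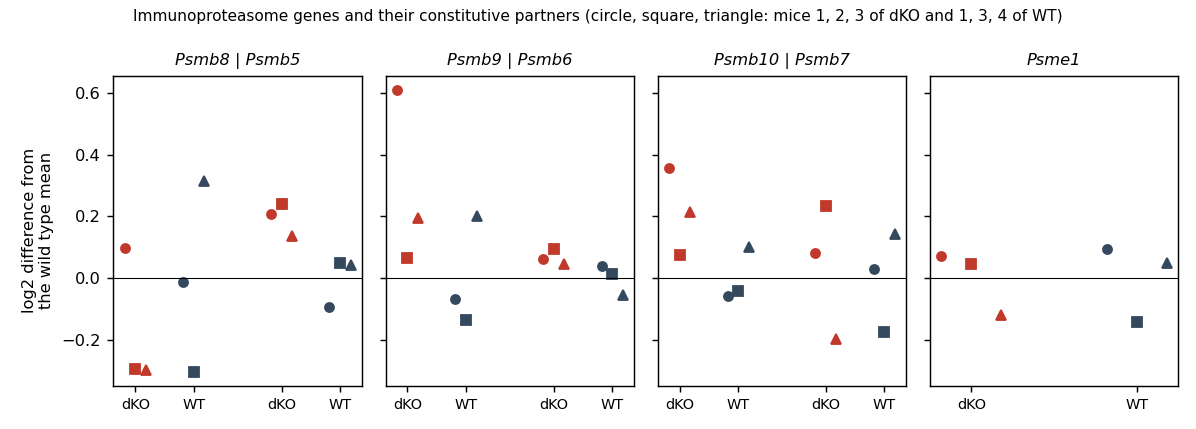
Log2 difference from the wild type mean for each immunoproteasome gene and the core subunit it replaces, with 1 point for each mouse and double knockout left of wild type. Psmb9 and Psmb10 are highest in double knockout mouse 1 (circles), Psmb8 is highest in wild type mouse 4 (triangle), and the constitutive subunit Psmb5 is higher in all double knockout mice.

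Blood cell markers, which matter here because immune cells express the immunoproteasome, also scattered widely. Positive fold changes were found for 7 of 7 (median 0.35), against 53.6% of all tested probe sets. By limma 0 passed the threshold, also at an unadjusted p under 0.05. Their summed linear signal ran from 1644 to 2776 in double knockout and from 868 to 2784 in wild type mice. Markers of T cells, B and plasma cells, and macrophages and dendritic cells had 0 genes past the limma threshold (0, 1 and 1 at an unadjusted p under 0.05, against 27.1% of all tested probe sets). Summed signals of these lists were 510 to 988, 8072 to 8480 and 4548 to 5983 in double knockout mice. The wild type sums for these lists were 589 to 778, 6775 to 8199 and 3569 to 5918, which overlapped them. Of the T cell markers 2 lay below 4 on all arrays, of the macrophage and dendritic cell markers 1, and of the blood cell and B and plasma cell markers 0. Their part in the immunoproteasome values was not tested.

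Genes of MHC class I presentation, which the immunoproteasome supplies with peptides, gave 0 of 16 tested genes past the limma threshold and a median log2 fold change of -0.075. By limma, 3 of the 16 had an unadjusted p under 0.05, against 27.1% of all tested probe sets. Nlrc5, the transactivator of MHC class I genes, stood at 0.89 ± 0.22 and the interferon gamma receptor subunit Ifngr2 at -0.40 ± 0.10 (limma adjusted p = 0.0661 and 0.0686). The Nlrc5 levels were low, with 5.25, 4.80 and 5.11 in the double knockout mice. Its wild type values of 4.61, 3.86 and 4.03 lay near the minimum of 4. Tap1, a peptide transporter subunit, was chosen after its values were seen. It had log2 levels of 8.75, 7.63 and 8.27 in double knockout mice 1, 2 and 3, against 7.63, 7.88 and 8.16 in wild type mice 1, 3 and 4. As for Psmb9, double knockout mouse 1 was the highest, and the groups overlapped. Double knockout mouse 2 was close to the lowest, wild type mouse 1, and Psmb8 was instead highest in wild type mouse 4.

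Alternative activators and the inhibitor were tested as 3 genes, and 0 passed by limma (1 at an unadjusted p under 0.05, against 27.1% of all tested probe sets). Psme3 (PA28 gamma), a nuclear activator that works without ubiquitin, had log2 levels of 7.14, 7.44 and 7.33 in double knockout mice 1, 2 and 3, against 6.98, 7.06 and 6.96 in wild type mice 1, 3 and 4. The groups did not overlap (0.30 ± 0.10, limma adjusted p = 0.127), and a further Psme3 probe set gave 0.38 ± 0.12 (limma adjusted p = 0.113). The activator Psme4 (PA200) stood at 0.079 ± 0.083 and the inhibitor Psmf1 (PI31) at 0.014 ± 0.099 (limma adjusted p = 0.575 and 0.942). The direction of Psmf1 turned under quantile normalization and median centring.

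Where a gene had several tested probe sets, they were compared. This held for 20 genes, 0 of their probe sets was called, and 6 genes (Psma1, Psmc6, Psmd11, Psmd13, Psme4 and Psmf1) had probe sets of both signs. For each of the 20 genes the 95% intervals of the probe sets overlapped. Psmg1, Psmg3 and Psmg4 each had 1 tested probe set, so their changes rest on a single measurement per array.

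The wider ubiquitin and proteasome system was followed in lists of other genes. For ubiquitin, its activation and its delivery, 0 of 9 tested genes passed by limma (1 at an unadjusted p under 0.05, against 27.1% of all tested probe sets). Positive values were found for 8, against 53.6% of all tested probe sets, with a median log2 fold change of 0.12. Faf1, an adaptor of the unfoldase Vcp, stood at 0.39 ± 0.10, and Ubqln2, a ubiquitin carrier, at -0.16 ± 0.09 (limma adjusted p = 0.0753 and 0.306). For further proteasome-bound and assembly factors, 0 of 11 passed by limma, 5 had positive values and the median log2 fold change was -0.014. In this list 2 had an unadjusted limma p under 0.05, and the same shares of all tested probe sets apply. Usp14, a deubiquitinase that docks on the cap, stood at 0.41 ± 0.09, and the stress-induced adaptor Zfand2a at -0.35 ± 0.12 (limma adjusted p = 0.0572 and 0.122). Pomp, the chaperone that completes the core particle and lies outside the symbol rule, stood at 0.030 ± 0.083 (limma adjusted p = 0.842), and was named after its value was seen.

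Regulators of proteasome genes gave 0 of 10 tested genes past the threshold by limma, with a median log2 fold change of 0.078. An unadjusted limma p under 0.05 was found for 3, against 27.1% of all tested probe sets. Nfe2l2 (Nrf2), the antioxidant regulator, had log2 levels of 11.63, 11.66 and 11.79 in double knockout mice 1, 2 and 3, against 12.02, 11.95 and 11.92 in wild type mice 1, 3 and 4. All double knockout values were lower (-0.27 ± 0.09, limma adjusted p = 0.109). Nfe2l1 (Nrf1), which raises proteasome gene expression when the proteasome is inhibited, stood at 0.25 ± 0.09 (limma adjusted p = 0.130) and was named after its value was seen. The NF-Y subunit Nfya stood at 0.38 ± 0.13 (limma adjusted p = 0.120).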

How the data were processed

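Each of 6 arrays measured total jejunal RNA (500 ng, biotin-labelled, per the labels' protocols) of 1 mouse, 3 double knockout and 3 wild type. The deposited values are log2 levels per probe set that the authors made with the R package GCRMA, version 2.18.0, as the submitters' processing notes record; no setting is recorded there. GCRMA corrects for background by base content and puts all arrays on one scale, which leaves dim probe sets poorly measured. Probe sets were named from the platform annotation.

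Of 45101 probe sets, 64 were controls and were removed. Among the others, 18013 lay above 4 on at least 3 arrays. They were fitted together with limma 3.58.1 in R 4.3.3 (lmFit, eBayes, double knockout minus wild type, two-sided, Benjamini-Hochberg over all of them, threshold 0.05). Errors are standard errors unless named otherwise. The fit was tested on simulated data. Paired subunits and RNA quality were compared by exact permutation over 20 splits. Each array is a different mouse by its label. Within a group, every pair of arrays differed by over 0.1 (log2) at 62.5% or more of the tested probe sets, so none is a repeat deposit.

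The proteasome genes and the lists (4 of pathway genes, 10 of cell type markers; 104 of 122 entries matched) were chosen with earlier results of these data known. Any proteasome gene could be named, among them those that passed, the immunoproteasome genes with their partners and the extremes of each role; of each other list, up to 4 passing or 2 non-passing genes by p. Exceptions are said in place. Alternatives covered the filter, normalization, a floor, variance prior, array weights, the mouse number, each mouse, an RNA quality covariate and the choice of probe set. Figures were drawn with matplotlib 3.10.9.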

Additional observations from a re-analysis of the deposited data

How the results depend on the processing

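Under 17 alternatives, 0 proteasome genes were called lower. The number called higher was 2 (Psmg1 and Psmg4) in the main analysis, 0 without the filter on dim probe sets, 1 (Psmg1) after quantile normalization or median centring, and 0 with the mouse number as a replicate block, with the RNA quality covariate and without any 1 mouse. It was 2 or 3 under the others. Psmg3 joined with the floor of 4 and array weights, and took the place of Psmg4 with the stricter filter and the trended, robust prior. Fold changes stayed positive throughout, between 0.49 and 0.62 for Psmg1, 0.42 and 0.70 for Psmg3 and 0.45 and 0.66 for Psmg4. The chaperone median was 0.32 with the stricter filter, 0.48 with the block, 0.32 with the covariate and between 0.28 and 0.47 without 1 mouse. Medians of core, cap and immunoproteasome moved by less than the spread between mice, the last of these to 0.196 with the block and to between 0.048 and 0.15 without 1 mouse. In the pathway lists, 1 gene (Usp14) was called higher and 1 (Ifngr2) lower with the stricter filter. With the trended, robust prior 3 (Usp14, Faf1 and Nlrc5) were called higher and 2 (Ifngr2 and Nfe2l2) lower. The Ifrd1 call was lost with the block (-4.36, limma adjusted p = 0.103) and with the covariate (-4.93, limma adjusted p = 0.0777). The mouse numbers 1 and 3 occur in both groups, and deviations of same-numbered mice correlated at 0.02 and 0.30 across probe sets; the labels do not say that they pair mice, and the block leaves 1 residual degree of freedom. It called 2 probe sets higher and 11 lower, against 458 and 347; without 1 mouse the counts were 11 to 196 and 21 to 239. The trended, robust prior called 968 higher and 762 lower, and the stricter filter 710 higher and 506 lower. No filter gave 265 higher and 207 lower, and the covariate 5 higher and 12 lower. Some uncalled values changed sign. Among those near 0, Psmf1 went to -0.0257 (quantile) and -0.00644 (centring), and Psme1 to -0.0197 (centring) and -0.0157 (weights). Psma4 went to 0.0152 (quantile), 0.00371 (block) and 0.0482 (covariate). Values further from 0 turned too, Psmb8 from -0.16 to 0.0572 (block) and Tap1 from 0.33 to -0.103 (covariate). Without 1 mouse Psmf1 ranged from -0.0575 to 0.0564, Psme1 from -0.0706 to 0.0603, Psmb7 from -0.0556 to 0.159, Psma4 from -0.0366 to 0.0230 and Psmc4 from -0.0595 to 0.107. The causes were not tested. With 3 mice a group, the width of the intervals limits what could be detected.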

Other observations

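Of the 49 genes, 3 were too dim to test. Psma8, an alpha subunit known from the testis, had log2 levels of 1.43, 1.62 and 1.80 in double knockout mice 1, 2 and 3, against 1.37, 1.85 and 1.46 in wild type mice 1, 3 and 4. Psmb11, the beta subunit of the thymus, had 1.68, 1.67 and 1.54 in the double knockout mice, against 1.56, 1.91 and 1.49 in the wild type mice. Psmc3ip, which carries the name of an ATPase but encodes a protein of meiotic recombination, had 3.76, 3.65 and 3.77 in the double knockout mice, against 3.34, 3.55 and 2.94 in the wild type mice. Its groups did not overlap, at levels under the minimum of 4. Psme3ip1 stood at 0.13 ± 0.07 on the log2 scale (limma adjusted p = 0.316).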
